A study of Mus musculus with 12 samples.

Results

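The m6A erasers and readers are the proteins that remove N6-methyladenosine (m6A) from RNA or bind it, and 10 of their genes were followed here by name: the erasers *Fto* and *Alkbh5*, the YTH domain readers *Ythdf1*, *Ythdf2*, *Ythdf3*, *Ythdc1* and *Ythdc2*, and the IGF2BP readers *Igf2bp1*, *Igf2bp2* and *Igf2bp3*. A gene was counted wherever the deposited peak lists gave its name to a peak, and the rule itself uses no measured value. The wild-type (WT) list held 13 peaks in 7 of the 10 genes, out of 33622 peaks in 15804 genes. The *Tyrobp-/-* list held 20 peaks in 8 of the 10 genes, out of 34935 peaks in 16169 genes.

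Hippocampi of *Tyrobp-/-* and WT mice on the C57BL/6 background, 6 months of age, were studied by MeRIP-seq, in which RNA fragments carrying m6A are immunoprecipitated (the IP library) and sequenced beside the untreated fragments (the input library). Each genotype had 3 samples, each a pool of 3 mice, with both kinds of library made from every sample. The knockout was a short germline deletion made by a nuclease in fertilized eggs, so that TYROBP, an adaptor of microglial receptors, was lost from all cells of the animal, and the methods describe male mice of this line with WT littermates as controls. *Tyrobp* itself had 0 peaks in either list, so the lists do not check the genotype labels. The peaks were called on the 3 samples of a genotype together, so each value below is 1 value per genotype without a replicate error, and no difference between genotypes could be tested.

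Methylation is written on nascent mRNA by the METTL3-METTL14 complex and can be removed by the dioxygenases FTO and ALKBH5. YTH domain proteins hold the methylated base in an aromatic pocket: the cytoplasmic YTHDF proteins promote mRNA decay and have been linked to translation, nuclear YTHDC1 acts in splicing and export, and YTHDC2 is a helicase best known from the germline. In neurons, m6A has been tied to local translation, axon growth and memory. The transcripts of these genes are themselves polyadenylated RNAs and can carry the mark, and it is their own peaks that are described here.

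Of the sequence under these peaks, the start of the listed *Fto* transcript is shown. It is the only stretch where a peak, a reference sequence and a form of the m6A consensus met. The first peak of *Fto* began in both genotypes at the first base of the listed transcript, and 50 of its bases overlapped the RefSeq promoter table. The RefSeq gene begins ahead of this base, at 91313367, so the bases shown are the first of the listed transcript and not of the RefSeq gene. The 30 bases from chr8:91313525-91313554 (GRCm38.p6, forward strand, RefSeq) are given with the consensus form in capitals.

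Fto, first bases of the transcript: agggcgaggggGAACAcggcccacggtggc

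The capitals lie at chr8:91313536-91313540. The search was for the DRACH consensus of m6A on the transcribed strand alone, which has any base but C in its first place, A or G in the next, then AC, and last any base but G. The last 50 bases of the table's windows, the same place relative to the start, held such a form in 54.7% of the 27025 promoters of the table, so such a match is common. The first peak of *Ythdc1* shared 95 bases with the table, chr5:86804221-86804315, and held 0 of these forms, against 75.3% of promoters with at least 1 in their last 95 bases. A match describes letters and does not mark a methylated base.

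Peaks were found in both erasers and in all 5 YTH genes in both genotypes, whereas *Igf2bp1* and *Igf2bp2* had none in either genotype and *Igf2bp3* had 1 in *Tyrobp-/-* mice alone. With peaks at a caller FDR below 1e-05 alone, 5 genes kept a peak in WT mice, without *Alkbh5* and *Ythdc2*, and 6 in *Tyrobp-/-* mice, without *Ythdc2* and *Igf2bp3*. As background, 56.8% of 21900 protein-coding RefSeq genes had a peak in the WT list and 58.2% in the *Tyrobp-/-* list, beside 7 and 8 of the 10 genes here. Among genes with a peak, the number ran from 1 in *Alkbh5*, *Ythdf2* and *Ythdf3* to 4 in *Ythdc1* in WT mice. In *Tyrobp-/-* mice it reached 6 in *Ythdc1*. Only *Ythdc1* reached 4 peaks in the WT list, and *Fto*, with 5, and *Ythdc1* did in the *Tyrobp-/-* list, against 13.9% and 14.3% of all genes with a peak. In whole hippocampus, fewer cells of a type and less RNA per cell cannot be told apart, and the levels of these transcripts were not analysed here, so the lack of a peak does not show the lack of the mark.

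**Figure D1:**
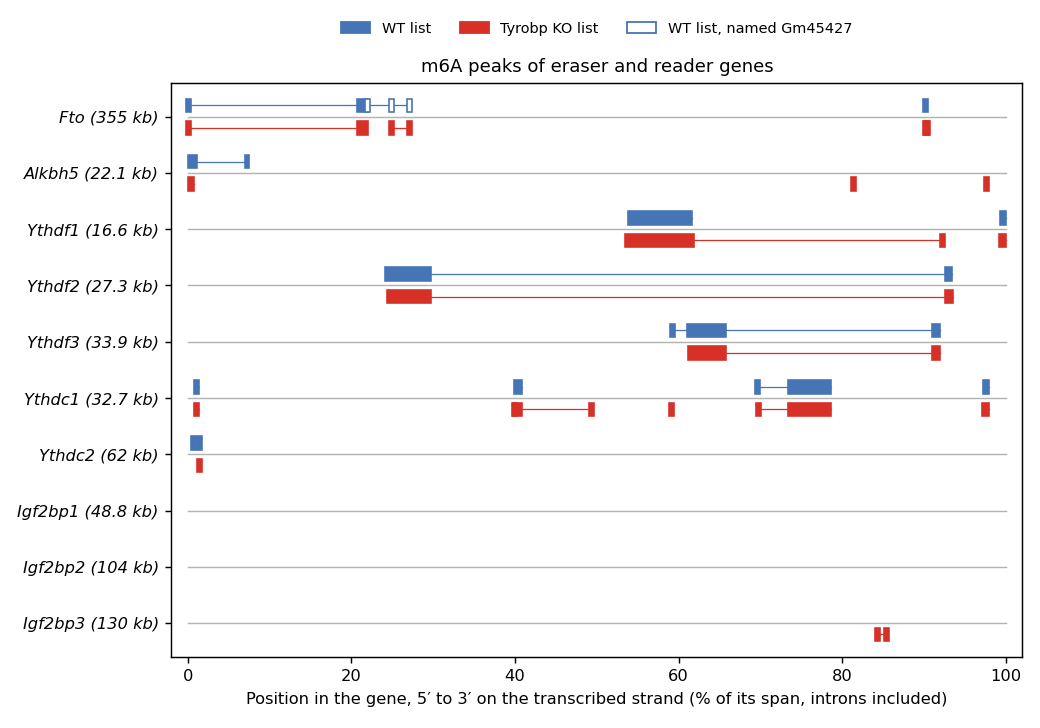
Peaks of the 10 genes along the span of each gene from 5′ to 3′ (percent of the span, introns included), with WT peaks in blue above the line and *Tyrobp-/-* peaks in red below it. Filled boxes are the exonic blocks of a peak, drawn at a minimum width so that short ones can be seen, thin lines join the blocks of 1 peak, and the open boxes in *Fto* are the WT peak that carries the name *Gm45427*. *Ythdf1*, *Ythdf2*, *Ythdf3* and *Ythdc1* show their long blocks at nearly the same place in both genotypes. *Ythdc2* has short blocks only, and *Igf2bp1* and *Igf2bp2* are empty.

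The eraser *Fto* (ENSMUSG00000055932, chromosome 8, forward strand), a demethylase also known for its link to body weight, had 2 peaks in WT mice and 5 in *Tyrobp-/-* mice. The first peak, chr8:91313525-91390689, was annotated to the 5′ UTR and consisted of 3 blocks of 96, 40 and 135 bases with the same borders in both genotypes. Its fold enrichment, the IP signal over input as scaled by the peak caller, was 3.03 in WT and 2.72 in *Tyrobp-/-* mice. It opens with the sequence printed above.

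Far downstream, *Fto* had a short and strongly enriched stretch. In WT mice it was called as 1 peak of 535 bases, chr8:91633376-91633910, with a fold enrichment of 23.4, at the 97.4th percentile of WT peaks. In *Tyrobp-/-* mice the list held 3 peaks there: chr8:91633435-91633673 with a fold enrichment of 13.3, chr8:91633732-91633851 with 10.5, and chr8:91634296-91634771 with 12.4. The first and second of these lay within the borders of the WT peak, and the third had no WT peak on it. The large fold in WT mice came with modest evidence, since 21382 of the 33622 WT peaks had a smaller caller p than the 1e-06 of this peak. All 4 were annotated to the only exon of another gene identifier, ENSMUSG00000110325, for which the files and tables used here give no name, so reads of *Fto* and of this gene cannot be told apart. Such an annotation to another gene was found for 2 of 13 WT peaks and 5 of 20 *Tyrobp-/-* peaks of the 10 genes, against 5.18% and 5.22% of all peaks.

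A further *Tyrobp-/-* peak, chr8:91401828-91409765, consisted of 2 separate blocks of 57 and 543 bases, chr8:91401828-91401884 and chr8:91409223-91409765, with a fold enrichment of 3.06 and an annotation that names exon 2 of 9 of an *Fto* transcript for the whole peak, and no WT peak of that name met it. The WT list did hold a peak on the same bases, chr8:91391542-91409765, but under the name *Gm45427* (ENSMUSG00000110233), a gene model on the reverse strand from 91390693 to 91391945. That WT peak had blocks of 9, 78 and 543 bases, of which only the short first block lies in *Gm45427*, and its annotation cell names the identifier of *Fto*. The WT peak, of 630 exonic bases, had a fold enrichment of 2.78, and the *Tyrobp-/-* peak, whose 600 bases all lie within it, had 3.06. By name, therefore, *Fto* would be counted as gaining a peak that by position was called in both genotypes. Across the lists, 602 of 23905 pairs matched by position carried different gene names.

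*Alkbh5* (ENSMUSG00000042650, chromosome 11, forward strand), the other demethylase, had 1 peak in WT mice and 3 in *Tyrobp-/-* mice. The shared peak started at the first base of a listed transcript, chr11:60536381. It covered 270 bases in 2 blocks in WT mice and 181 bases in *Tyrobp-/-* mice, with fold enrichments of 14.6 and 12.4. This transcript starts ahead of the RefSeq gene, which begins at 60537683, and all but the last 13 bases of the WT peak lie before that base. The 2 further *Tyrobp-/-* peaks had low folds: chr11:60554352-60554412, annotated to exon 4 of 4 of the same transcript but running past its listed end at 60554367, had a fold enrichment of 1.57, and chr11:60557913-60558033 in the 3′ UTR had 1.72. Their caller FDR, 1.29e-07 and 8.32e-06, was smaller than that of the shared peak, which was 4.07e-05 in WT and 0.000209 in *Tyrobp-/-* mice. No WT peak met either of them.

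The 3 cytoplasmic YTHDF readers, which are close paralogs, carried long peaks with very small caller p-values in both genotypes. In *Ythdf1* (ENSMUSG00000038848, chromosome 2, reverse strand) the long peak lay in exon 4 of 5, chr2:180910739-180912023 in WT mice, with 1285 exonic bases in WT and 1405 in *Tyrobp-/-* mice. Its fold enrichment was 6.49 in WT and 6.16 in *Tyrobp-/-* mice. The second, short peak of *Ythdf1* sat at the very end of the 3′ UTR, starting at chr2:180904377, and its fold enrichment was 1.71 over 120 bases in WT and 2.93 over 150 bases in *Tyrobp-/-* mice. The 2 peaks of the gene thus moved in opposite directions, the long one by little.

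*Ythdf2* (ENSMUSG00000040025, chromosome 4, reverse strand), the member of the family best known for mRNA decay, had 1 peak in each genotype. It joined a long block, chr4:132204132-132205651 in WT mice, to a block of 243 bases near the 3′ end. The fold enrichment was 8.12 over 1763 exonic bases in WT and 8.74 over 1733 in *Tyrobp-/-* mice.

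*Ythdf3* (ENSMUSG00000047213, chromosome 3, forward strand) had the longest peak of the 10 genes. In WT mice it covered 1978 exonic bases, 1599 of them in the block chr3:16203826-16205424, with a fold enrichment of 11.2. In *Tyrobp-/-* mice it covered 1918 bases with a fold enrichment of 9.12. The deposited annotation names 1 feature for a whole peak, and for *Ythdf2* and *Ythdf3* it named the 3′ UTR, with most of the exonic bases in the upstream block.

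The nuclear reader *Ythdc1* (ENSMUSG00000035851, chromosome 5, forward strand) had the most peaks, 4 in WT and 6 in *Tyrobp-/-* mice. Its strongest, chr5:86826686-86829685 in WT mice, resembled those of the YTHDF genes in length, with 1857 exonic bases in WT and 1797 in *Tyrobp-/-* mice. The fold enrichment there was 11.0 in WT and 13.7 in *Tyrobp-/-* mice. The other 3 shared peaks were modest: that at the transcript start, chr5:86804221-86804431, had 4.16 in WT and 3.52 in *Tyrobp-/-* mice, that around chr5:86817021 had 2.06 and 2.0, and that in the last 3′ UTR, around chr5:86835731, had 1.88 and 1.89. The peak around chr5:86817021 was annotated to exon 5 of 5 of another gene identifier, ENSMUSG00000105704. In *Tyrobp-/-* mice a second call of 147 bases with a fold enrichment of 1.84 overlapped it, and is counted as a further peak in that list. One *Tyrobp-/-* peak, chr5:86823244-86823364 with a fold enrichment of 2.59, met no WT peak.

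*Ythdc2* (ENSMUSG00000034653, chromosome 18, forward strand), the helicase of the family, had weakly supported peaks near its 5′ end. The 2 WT peaks, chr18:44828076-44828256 and chr18:44828466-44828706, had fold enrichments of 7.81 and 6.84. The *Tyrobp-/-* peak, chr18:44828556-44828736, had 8.58 and overlapped the second of them. The caller's false discovery rate (FDR) was 0.162 and 0.275 in WT and 0.102 in *Tyrobp-/-* mice. The lists admit peaks up to an unadjusted p of 0.05, and 10.3% of WT and 11.0% of *Tyrobp-/-* peaks had an FDR of 0.05 or more.

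The IGF2BP proteins, known for stabilizing mRNAs in embryos and tumors, were encoded by genes with 1 peak in all. *Igf2bp3* (ENSMUSG00000029814, chromosome 6, reverse strand) had 1 *Tyrobp-/-* peak, chr6:49104266-49105656, of 121 exonic bases annotated to exon 9 of 15. Its fold enrichment was 2.27, with a caller FDR of 0.0316, and it stood at the 12.6th percentile of folds in that list.

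In length and caller p, the main peaks of *Ythdf1*, *Ythdf2*, *Ythdf3* and *Ythdc1* stood out from the other peaks of the 10 genes. Their exonic length ranged from 1285 to 1978 bases in WT mice and from 1405 to 1918 bases in *Tyrobp-/-* mice, where the median of all peaks was 326 and 301 bases. The log10 of the caller p for *Ythdf3* was -1230 in WT, rank 809 of 33622, and -686 in *Tyrobp-/-* mice, rank 1598 of 34935. For *Ythdf2* it was -891 (rank 1277) and -814 (rank 1279), for *Ythdf1* -558 (rank 2280) and -410 (rank 2836), and for *Ythdc1* -329 and -320. The WT peak under the name *Gm45427*, which shares its bases with a *Tyrobp-/-* peak of *Fto*, is not counted among the peaks of the 10 genes. Its log10 p was -307 over 630 exonic bases, so in caller p it came close to *Ythdc1* in WT mice. The *Fto* peak on these bases in *Tyrobp-/-* mice had -135. Fold enrichment did not set them apart in this way: the long peak of *Ythdf1* stood at the 55.9th percentile of WT folds and that of *Ythdf3* at the 82.3rd. A caller p falls with the number of reads as well as with enrichment, and the reads behind single peaks are not known here.

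**Figure D2:**
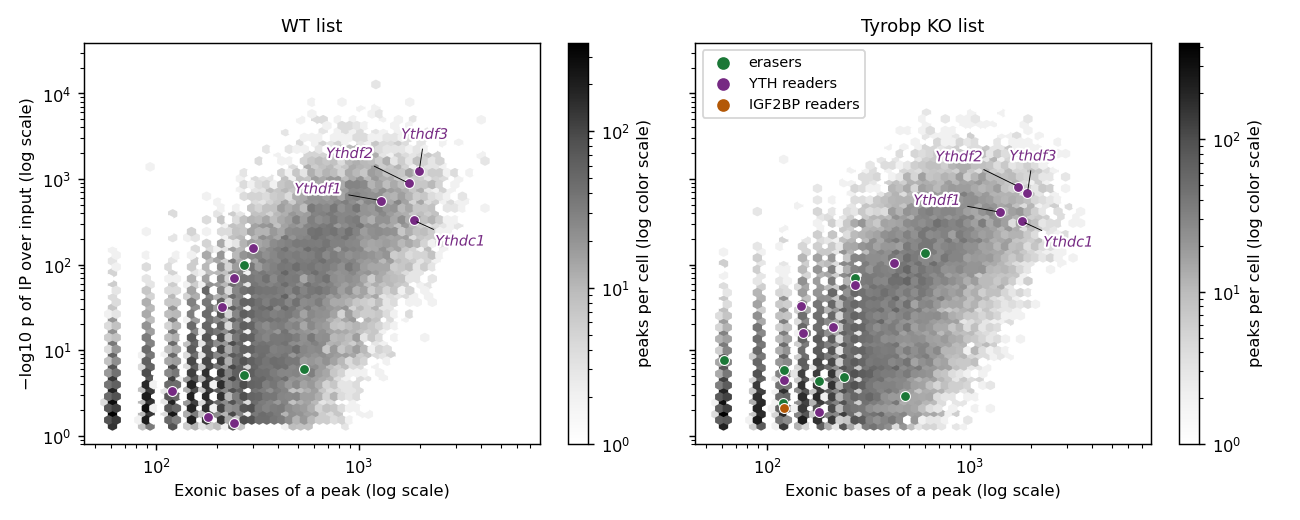
Exonic bases of each peak (x axis, log scale) against the −log10 of the caller p of IP over input (y axis, log scale), for the WT list on the left and the *Tyrobp-/-* list (Tyrobp KO) on the right. Grey cells count all peaks with a finite log10 p, darker for more, and colored points are the peaks of the eraser and reader genes. The long peaks of *Ythdf1*, *Ythdf2*, *Ythdf3* and *Ythdc1* lie at the upper right in both genotypes, and every peak named for an eraser lies below them. The WT peak on *Fto* bases that carries the name *Gm45427* is not among the colored points.

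By UTR annotation, the shares over all peaks lay within the wide intervals of the 10 genes. The 3′ UTR was the annotation of 5 of 13 WT peaks (38.5%, exact 95% interval 13.9 to 68.4%) and of 6 of 20 *Tyrobp-/-* peaks (30.0%, 11.9 to 54.3%), against 47.2% and 49.3% of all peaks. The 5′ UTR was given for 5 of 13 WT peaks (13.9 to 68.4%) and 3 of 20 *Tyrobp-/-* peaks (3.21 to 37.9%), against 18.9% and 17.3% of all peaks. The intervals cover counting error only, and peaks of 1 gene share their transcript. Peaks that reached the start of a listed transcript numbered 4 in each list, those of *Fto*, *Alkbh5* and *Ythdc1*, the last with 2, beside 21.0% of all WT and 19.7% of all *Tyrobp-/-* peaks.

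To ask how enrichment differed between genotypes, WT and *Tyrobp-/-* peaks of the same gene were paired where their exonic blocks shared at least 1 base and each was the other's best match. This gave 12 pairs in the 7 genes with peaks in both lists, out of 23527 pairs in all genes. None of the 12 differed by 2-fold or more in either direction, where 6.94% of all pairs were at least 2-fold higher and 6.07% at least 2-fold lower in *Tyrobp-/-* mice. The log2 ratio of *Tyrobp-/-* over WT fold enrichment ranged from -0.82 to 0.78 over the 12 pairs, with a median of -0.06 and 5 pairs higher and 7 lower. Over all pairs the median was 0.05, the quartiles ran from -0.28 to 0.39, and 53.6% were higher.

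At a lower threshold of 1.5-fold, 1 of the 12 pairs was higher and 1 lower in *Tyrobp-/-* mice, where 16.0% and 13.2% of all pairs were. The higher one was the 3′ UTR end of *Ythdf1*, with a log2 ratio of 0.78, at the 89.6th percentile of all pairs. The lower one was the downstream peak of *Fto*, with a log2 ratio of -0.82, at the 8.4th percentile of all pairs. In this pair a WT peak of 535 bases meets a *Tyrobp-/-* peak of 239 bases. Both peaks of the pair were annotated to the exon of ENSMUSG00000110325, so the ratio cannot be given to *Fto* alone. A required reciprocal overlap of 50% removed this pair, and the lowest log2 ratio of the 11 pairs left was -0.30, so that none was 1.5-fold lower. Both rest on short or thinly supported peaks, and 1 of 12 is no larger a share than that of all pairs in either direction.

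The 4 long reader peaks differed little between genotypes. Their log2 ratios were -0.08 for *Ythdf1*, 0.11 for *Ythdf2*, -0.30 for *Ythdf3* and 0.32 for *Ythdc1*. The first peaks of *Alkbh5*, *Fto* and *Ythdc1* had ratios of -0.24, -0.16 and -0.24, and the *Ythdc2* pair had 0.33. With 1 value per genotype, none of these can be told from sampling differences, nor do they show that the genotypes were alike.

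**Figure D3:**
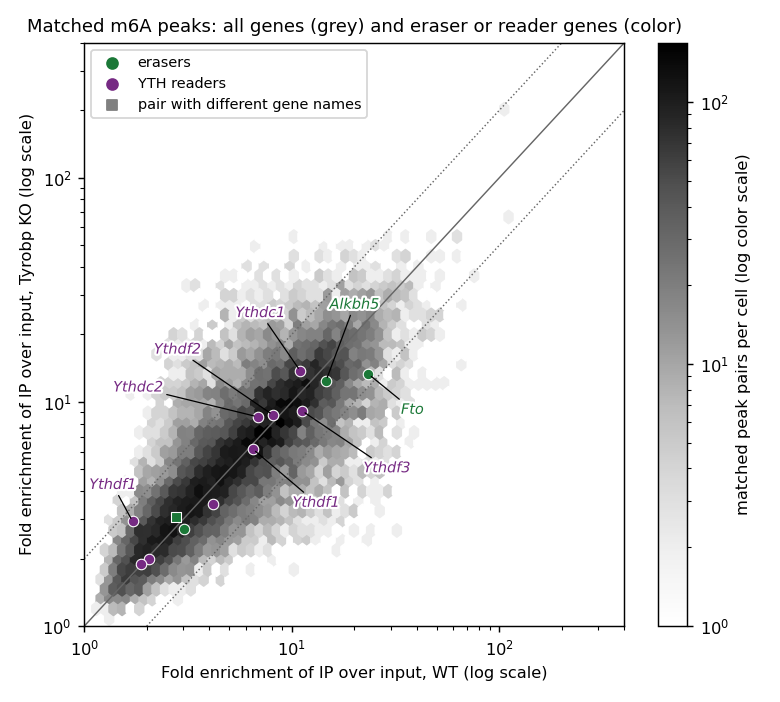
Fold enrichment of matched peaks in WT mice (x axis, log scale) and *Tyrobp-/-* mice (Tyrobp KO, y axis, log scale), with all 23527 pairs as grey cells and the eraser and reader genes as colored points. The solid line marks equal values, the dotted lines a 2-fold difference, and the square the *Fto* pair matched by position under different gene names. The 12 pairs and the square all lie between the dotted lines.

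**Figure D4:**
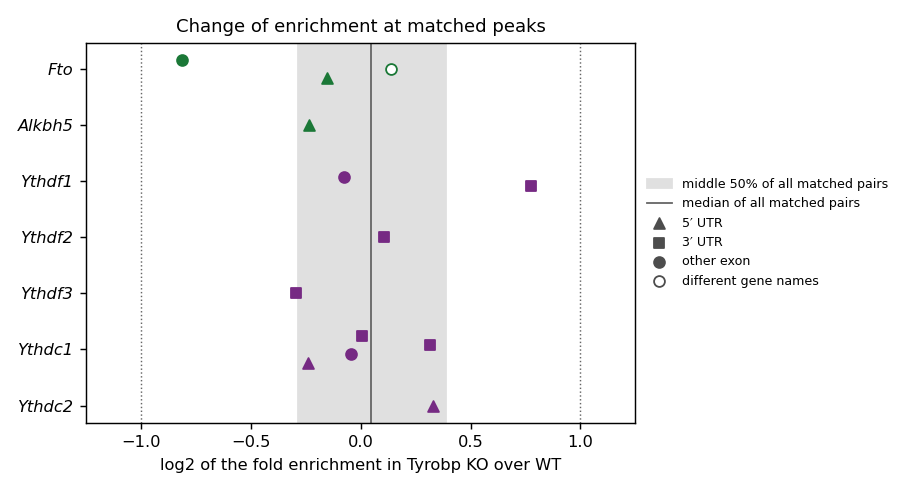
Log2 ratio of *Tyrobp-/-* (Tyrobp KO) over WT fold enrichment for each matched pair (x axis), by gene, with the marker giving the annotation of the WT peak and the open circle the *Fto* pair under different gene names. The grey band spans the quartiles of all 23527 pairs, the line marks their median of 0.05, and the dotted lines mark 2-fold. The downstream *Fto* pair at -0.82, annotated to another gene identifier, and *Ythdf1* at 0.78 are the points farthest from 0.

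Peaks without a partner were counted in each list. The counts are small, and whether they differ between the lists or from the shares of all peaks was not tested. Of the 13 WT peaks, 1 had no partner, the first *Ythdc2* peak, against 30.0% of all WT peaks. Of the 20 *Tyrobp-/-* peaks, 8 had no partner, against 32.7% of all *Tyrobp-/-* peaks. Of these 8, 3 lay on bases that a WT peak also covered: the *Fto* peak from chr8:91401828 under *Gm45427*, the second downstream peak of *Fto*, and the double call in *Ythdc1*. The remaining 5 were the last *Fto* peak, the 2 short *Alkbh5* peaks, *Ythdc1* at chr5:86823244 and *Igf2bp3*, with fold enrichments from 1.57 to 12.4 and a caller FDR of at most 0.0316. The 3 IP libraries summed to 194407200 valid reads in *Tyrobp-/-* and 199741600 in WT mice, and the input libraries to 205102040 and 215254842, and the part of depth in these counts was not tested.

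The table in which the authors compared the genotypes lists 5640 peaks in 4671 genes, and 4 of the 10 genes have 1 row each: *Ythdf1*, *Ythdf2*, *Fto* and *Alkbh5*. Of the 17779 genes with a peak in either list, 26.1% have a row there. Of the 10 genes here, 8 had a peak in either list, all but *Igf2bp1* and *Igf2bp2*, and the 4 with a row are among these 8. A row is not by itself a called difference, since the paper reports far fewer differing peaks than there are rows. The *Ythdf1* row, chr2:180904377-180904556, and the *Ythdf2* row, chr4:132186675-132205651, lie on peaks of both lists. The *Fto* row, chr8:91634445-91634652, and the *Alkbh5* row, chr11:60554322-60554412, touch a *Tyrobp-/-* peak and no WT peak.

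Most other genes of the pathway, taken from fixed lists, also had a peak. Beside them, 56.8% of protein-coding genes had a peak in the WT list and 58.2% in the *Tyrobp-/-* list. A list of writer genes held those of the complex that lays down m6A together with *Mettl16*, a separate methyltransferase. In this list 8 of 9 genes had a peak in each genotype and *Mettl3*, the catalytic subunit of the complex, had none. Among the 18 matched pairs of the list 0 were at least 2-fold higher and 1 at least 2-fold lower in *Tyrobp-/-* mice. The lower one was a 3′ UTR peak of *Rbm15b*, which helps to guide the complex to its targets, with 36.1 in WT and 10.1 in *Tyrobp-/-* mice. The median log2 ratio was -0.01. Of 12 other genes whose proteins bind m6A or act with its readers, 10 had a WT peak and 11 a *Tyrobp-/-* peak, with *Hnrnpc* without one in either and *Fmr1* without one in WT mice. Of their 18 pairs 2 were at least 2-fold higher and 0 lower: the stress granule gene *G3bp2*, with 6.84 in WT and 15.2 in *Tyrobp-/-* mice, and *Snd1*, a component of RNA silencing complexes, with 1.89 and 6.67. Their median log2 ratio was 0.05. Beside these counts of 18 pairs each stand the 6.94% of all pairs at least 2-fold higher and the 6.07% at least 2-fold lower.

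No list for another brain region was used, so the hippocampus label was not checked. Marker genes with a peak in both lists were counted by cell type. These were 9 of 9 for hippocampal neurons, 2 of 3 for inhibitory neurons (not *Gad1*), 6 of 7 for microglia (not *Trem2*), 5 of 5 for astrocytes and 4 of 4 for oligodendrocytes, so marker transcripts of all these cells were present in both genotypes, beside 56.8% of protein-coding genes with a WT and 58.2% with a *Tyrobp-/-* peak. Pairs at least 2-fold lower in *Tyrobp-/-* mice numbered 1 of 14 in the microglial and 1 of 8 in the astrocyte genes, and 2 of 8 were at least 2-fold higher in the oligodendrocyte genes, with 0 past 2-fold among the 19 and 2 pairs of the neuronal lists, where 6.94% of all pairs were higher and 6.07% lower by that much. The 12 libraries held from 61189368 to 73554506 valid reads each. The share of G and C bases in the IP libraries was from 49.16 to 50.24% in WT and from 48.46 to 49.33% in *Tyrobp-/-* mice, and its part in the peaks above was not tested.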

How the data were processed

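Reads were trimmed (fastp) and aligned by the authors to GRCm38 with the annotation of Ensembl v96 (HISAT2). Peaks were called by exomePeak, which took all 3 replicates of 1 genotype in 1 run, and annotated with ChIPseeker. Versions are not given in the sources used here. The authors deposited per library the counts of raw and valid reads and the percent of G and C bases. Per peak the authors deposited a fold enrichment (the ratio of IP to input, scaled in exomePeak), the p-value, and the log10 of p and FDR (a score of IP over input). The comparison table also holds the authors' fold change between genotypes, its p and FDR. These are not used, and of that table only the presence, place and annotation of rows were taken.

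Peaks were compared by their exonic blocks, and paired between lists as reciprocal best matches within a gene identifier. The log2 ratio of fold enrichment was computed per pair, and the median over pairs stands for a gene. A fold of 2 was the threshold. With 1 pooled value per genotype no test was made. Shares have exact Clopper-Pearson 95% intervals. The pairing code was run on simulated peaks whose positions and names were unchanged, so that run did not test shifted, split or renamed peaks. Gene positions were checked against RefSeq (GRCm38.p6): 15838 of 15880 genes matched by symbol overlapped (99.7%). All 10 members have a RefSeq entry, and 7 have a promoter sequence. *Igf2bp1* and *Igf2bp2*, without a peak, gave no position to check. The reads behind a single peak are unknown. All peaks of the 10 genes are described, and the pathway and marker lists were fixed, but members and lists were chosen with earlier results of these data known. *Gm45427* is named because a peak of it lies within *Fto*. Replicates left out in turn, and other sequence under the peaks, were not analysed here. Alternatives were other cuts on FDR and fold, other overlaps, summaries, scaling and thresholds, and, chosen after seeing the data, an FDR below 0.05 and matching whatever the gene name. Python 3.11.15, numpy 2.4.6, pandas 2.3.3, scipy 1.17.1 and matplotlib 3.10.9 were used.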

Additional observations from a re-analysis of the deposited data

How the results depend on the processing

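Of 67 values recomputed under an alternative, 56 stayed within 1.5 times the count, within the interval of the share, or within 0.1 of the log2 ratio. Some of these 56 could not have moved, so the count does not measure how stable the results are. Subtracting the median of all pairs shifts every log2 ratio by 0.048, which is below the limit of 0.1. For *Alkbh5*, *Ythdf2*, *Ythdf3* and *Ythdc2* the strongest pair is also the only pair. Genes with a peak fell from 7 to 5 (WT) and from 8 to 6 (*Tyrobp-/-*) at a caller FDR below 1e-05, and to 6 and 7 at an FDR below 0.05 (chosen after seeing the data). The number of *Tyrobp-/-* peaks fell from 20 to 13 at a caller FDR below 1e-05 and to 9 at a fold enrichment of at least 4. The log2 ratio of *Fto*, -0.49 as the median of 2 pairs, was -0.16 with a reciprocal overlap of 50% and also when matched whatever the gene name (chosen after seeing the data), and -0.82 for the strongest pair alone. That pair is the downstream one, annotated to ENSMUSG00000110325. For the strongest pair, *Ythdf1* changed sign from 0.35 to -0.075, and *Ythdc1* from -0.02 to 0.32. Pairs past the fold threshold rose from 0 to 1 higher and 1 lower at 1.5-fold, and to 2 higher and 1 lower at a difference of 25%. No paired analysis was possible because the authors pooled the replicates of a genotype when calling peaks, so no result comes from a test and no replicate could be left out.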
